A study of Mus musculus with 11 samples.

Results

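The islet endothelial genes are 32 genes that mark the cells lining the blood vessels of the islet, among the 19329 gene IDs measured by bulk RNA-sequencing of whole mouse islets. They were chosen by name, as known markers of endothelium, with no threshold on a measured value, but with earlier results of these data known. The study set homozygous PDX1P33T mice against wild-type mice that it calls littermates, and it also states that cohort animals came from homozygous intercrosses. The litters of the sequenced mice are not given, so an effect of litter cannot be told apart from genotype. PDX1 is a transcription factor of the pancreas and beta cell, and P33T exchanges a proline for a threonine in its N-terminal transactivation domain. The line was made by CRISPR-Cas9 editing of C57BL/6N embryos, so every cell of a mutant mouse carries the change, endothelial cells included. All mice were chow-fed males at 14 weeks of age, with no treatment, and their islets were cultured for a day or longer after isolation. There were 6 wild-type libraries and 5 PDX1P33T libraries. The study's legend speaks of several mice per replicate. A library may thus be a pool of animals, and n and SD refer to libraries throughout.

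Islets are among the most densely vascularised structures of the pancreas. Their capillaries are thin-walled and fenestrated, with pores bridged by diaphragms through which hormones reach the blood. Beta cells secrete VEGF-A, which acts on the receptor Kdr (VEGFR2) of the neighbouring endothelium, and angiopoietins act on the receptor Tek (Tie2). Endothelial identity is kept by transcription factors of the ETS and SOXF families, such as Erg, Fli1, Sox17 and Sox18. In bulk RNA of whole islets, fewer endothelial cells and less RNA of these genes per cell cannot be told apart.

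The values are FPKM, the reads of a gene divided by its length in kilobases and by the library's depth. Depth lay between 19311937 and 37094286 reads per wild-type library and between 23731684 and 36865206 per PDX1P33T library. The PDX1P33T values stand on the rows of their own genes, whereas most deposited wild-type values stand on rows of other genes. A wild-type row was identified for 4764 of the 19329 gene IDs (24.6%). All 32 endothelial genes were above 0 in all 5 PDX1P33T libraries, and 20 of them have an identified wild-type row. For 9 of the 20 the row was known from the gene's wild-type reads in the part held here of the authors' supplementary sheet. The other 11 were matched by gene length and level, a match that by its construction cannot hold a difference beyond 4-fold. The remaining 12 genes are described in PDX1P33T only. The libraries have the make-up of islets, with Ins2 at 113559 to 162510 FPKM in wild-type and 135342 to 177811 in PDX1P33T. Pdx1 itself lay between 77.9 and 80 FPKM in the 5 PDX1P33T libraries, and its wild-type row was not identified, while FPKM cannot show a single base change. In their endothelial genes 3 libraries stood apart, wild-type replicate 3 on the high side of its genotype, wild-type replicate 1 on the low side of it and PDX1P33T replicate 2 on the low side of the mutants, so results are given with and without them.

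Across the PDX1P33T libraries the endothelial genes covered a wide range of levels per length. The most abundant was Plvap, the protein of the fenestral diaphragm, at 56.0 ± 15.9 FPKM (SD, n = 5). Next came Eng, the endoglin coreceptor for BMP ligands, at 23.1 ± 6.75, and Cdh5, the VE-cadherin of the endothelial junction, at 16.3 ± 5.49. S1pr1, Kdr, Esam, Emcn and Pecam1 followed with means from 14.6 down to 10.6 FPKM, and from Kdr to Pecam1 the means lay within 1 SD of each other. In all, 8 genes had a mean of at least 10 FPKM, 18 lay between 1 and 10, and 6 were under 1. At the foot of the order stood Aplnr, the apelin receptor, at 0.204 ± 0.113 FPKM and Vwf, the clotting protein of larger vessels, at 0.221 ± 0.0787. Counting error is large for such genes: Aplnr rested on 6 to 37 reads per PDX1P33T library and Tal1 on 16 to 49.

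**Figure D1:**
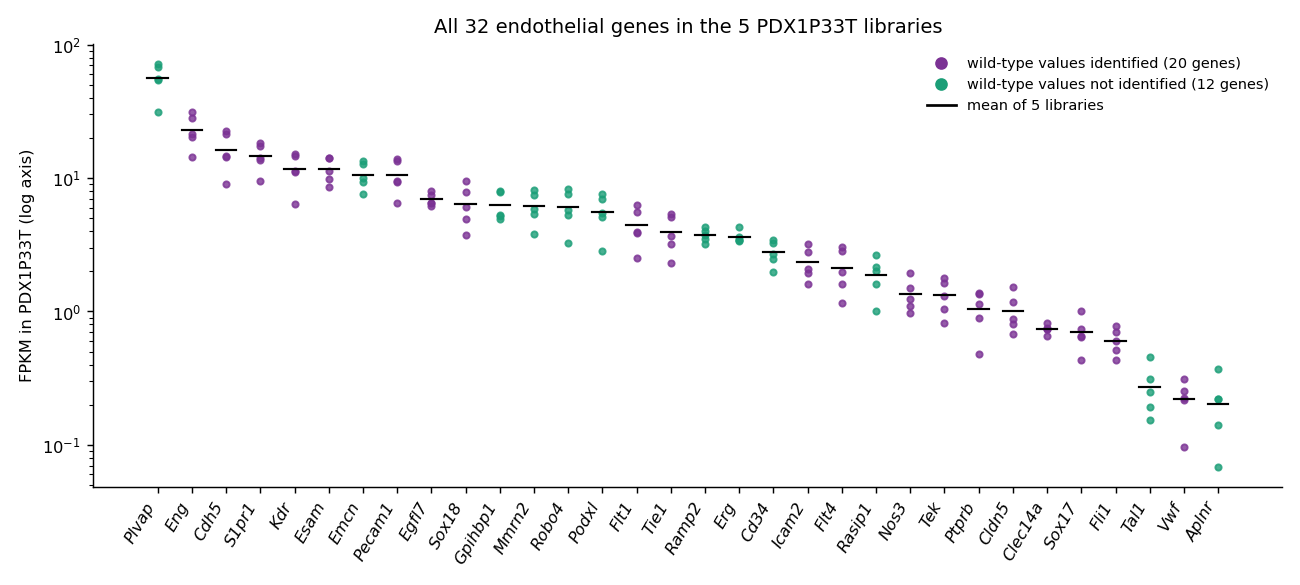
FPKM (log axis) of all 32 endothelial genes in the 5 PDX1P33T libraries, 1 dot per library and a bar at the mean, in order of the mean. Plvap stands at the top with 31.1 to 71.4 FPKM and Aplnr at the foot with 0.0683 to 0.372, and the green genes have no identified wild-type values.

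Within each genotype the endothelial genes went up and down together from library to library. In wild-type, replicate 3 was the highest library for 20 of 20 genes, against 32.5% of the 4725 genes fitted, and it exceeded the median of the other 5 at least 2-fold for 20 of 20, against 11.7%. The ratio ran from 2.14 for Fli1 to 3.83 for Sox18, with a median of 2.69, and over all genes fitted its median was 0.995. Wild-type replicate 1 was the lowest library for 20 of 20 genes, against 31.3%, and its median ratio to each gene's wild-type median was 0.527. The other 4 wild-type libraries lay close together, and the medians of their ratios to each gene's wild-type median were 0.875, 0.978, 1.02 and 1.09. The FPKM of the 20 genes summed to 471 in replicate 3 and to 94.8 to 196 in the other wild-type libraries.

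In PDX1P33T, replicate 2 was the lowest library for 28 of 32 genes, against 33.3% of the 17600 genes above 0 in all 5 libraries. It was at or under 0.6 of the median of the other 4 for 18 of 32, against 8.49%. Its ratio ran from 0.311 for Aplnr to 0.991 for Clec14a, with a median of 0.568. Replicates 1 and 4 formed the upper end, 1 of them being the highest library for 31 of 32 genes, against 38.9%. Some genes took little part in this. Erg, Clec14a, Egfl7 and Ramp2 spread only 1.26-, 1.26-, 1.3- and 1.36-fold from the lowest to the highest PDX1P33T library, while the median endothelial gene spread 2.22-fold. Among all genes above 0 in all 5 libraries the median spread was 1.57-fold, and among those with a mean of at least 1 FPKM it was 1.39-fold. The summed FPKM of the 20 genes with wild-type values was 77.0 in replicate 2 and up to 158 in the other PDX1P33T libraries.

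**Figure D2:**
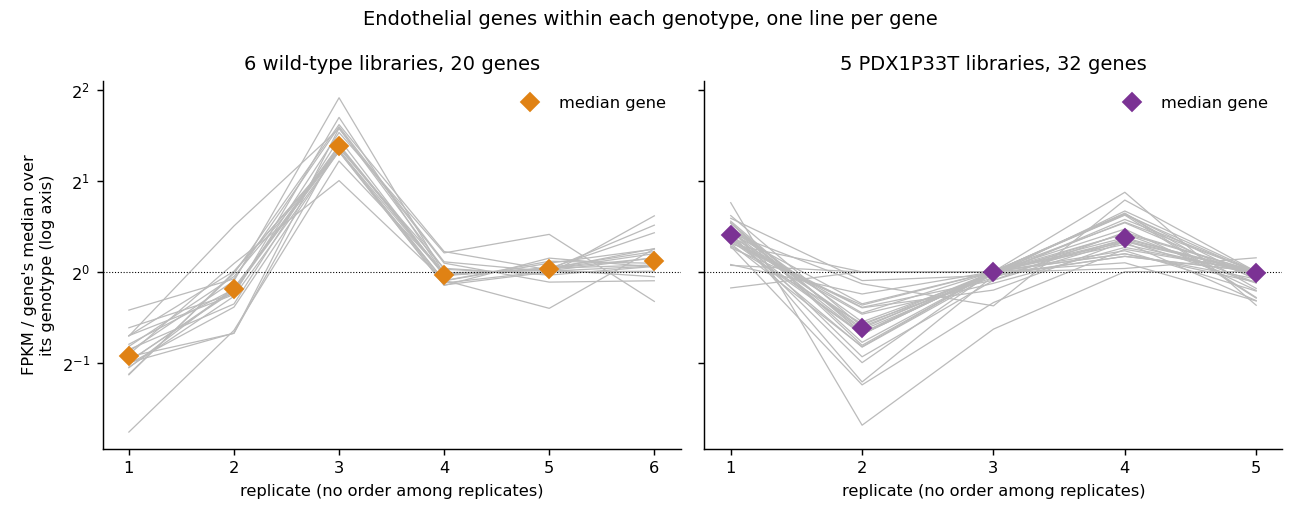
FPKM of each endothelial gene divided by its median over the libraries of its genotype (log axis), with a grey line per gene and a diamond at the median gene of each library. Wild-type replicate 3 rises above the rest for all 20 genes (median gene 2.61), and PDX1P33T replicate 2 lies lowest (median gene 0.652).

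Between the genotypes, the mean level of all 20 comparable endothelial genes was lower in PDX1P33T than in wild-type, but no gene passed the test. With limma on log2(FPKM + 0.1), 0 of 20 were called lower and 0 of 20 higher where a call needed a Benjamini-Hochberg adjusted p up to 0.05 and a fold change of 1.5 or more, and 0.0423% of the 4725 genes fitted were called in each direction. The median log2 fold change was -0.64, against -0.06 over all genes fitted, and the single values ran from -0.84 for Tek to -0.42 for Sox17. Adjusted p-values lay between 0.499 and 1.00. Of all genes fitted 52.9% had a log2 fold change below 0. The libraries of the 2 genotypes overlapped for 20 of 20 genes, while 2.54% of the genes fitted had every PDX1P33T library below every wild-type library and 2.31% had every one above. The 95% interval of the log2 fold change included 0 for 14 of the 20.

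An unadjusted p under 0.05 with a lower level in PDX1P33T was reached by 6 of 20 genes, against 18.3% of the genes fitted. All 6 were among the 9 genes whose rows came from their reads, and 48.5% of the 1673 genes identified in that way had such a p, since the held part of the sheet is ordered by the difference between genotypes. The 9 genes had a median log2 fold change of -0.69, against -0.32 for all genes identified by reads. For the 11 genes matched by length and level the median was -0.60, against 0.04 for all genes matched like them, and 0 of the 11 had an unadjusted p under 0.05, against 1.74%. These values moved with the libraries that stood apart. Without wild-type replicate 3 the median over the 20 genes was -0.40 (-0.03 over all genes), with 20 of 20 below 0 against 52.1%. Again 0 of 20 were called, against 0.0635% lower and 0.0423% higher, the groups still overlapped for 20 of 20, against 3.24% wholly lower, and 4 of 20 had an unadjusted p under 0.05 with a lower level, against 14.5%. Without both wild-type replicate 3 and PDX1P33T replicate 2 the median was -0.23, and the single values ran from -0.49 for Cldn5 to -0.03 for Sox17. Leaving out wild-type replicate 1, the lowest of its genotype for 20 of 20 genes, moved the values the other way, as it must. The median was then -0.86 (-0.06 over all genes), again with 20 of 20 below 0, against 52.6%, and 0 of 20 called, against 0.106% lower and 0.0635% higher, while the lowest adjusted p was 0.166, for Clec14a. An unadjusted p under 0.05 with a lower level was then reached by 17 of 20, against 25.7%. Every PDX1P33T library lay below every remaining wild-type library for 5 of 20 (Flt1, Tek, Esam, Clec14a and Egfl7), against 10.5%, and the groups overlapped for the other 15.

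**Figure D3:**
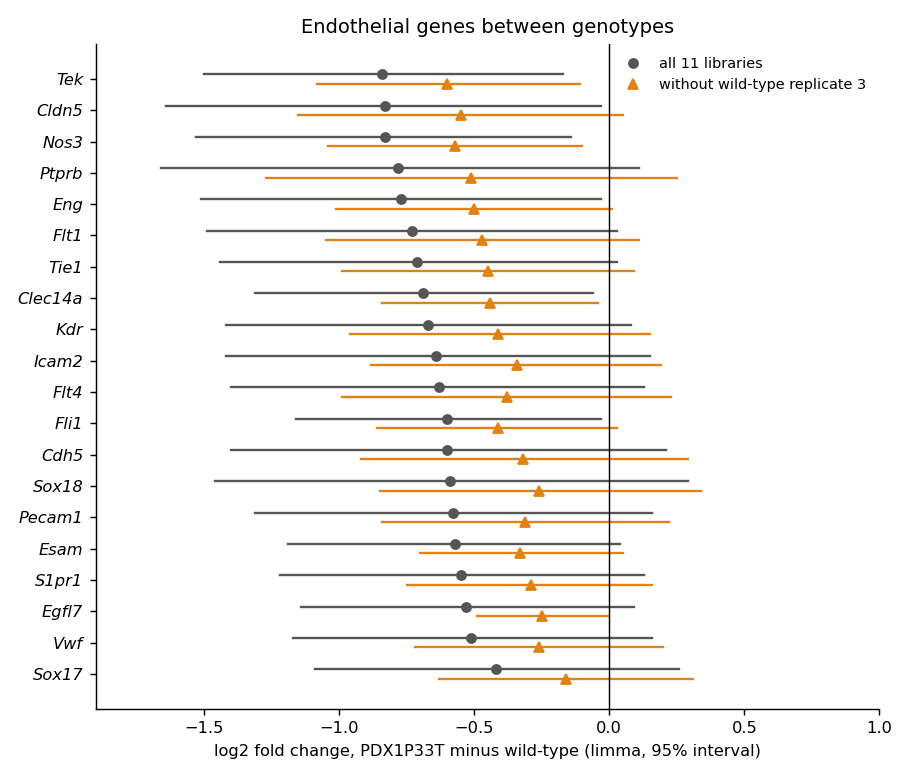
Log2 fold change of 20 endothelial genes, PDX1P33T minus wild-type, with 95% intervals from limma, for all 11 libraries (circles) and without wild-type replicate 3 (triangles). All points lie left of 0, from -0.84 to -0.42 with all libraries and from -0.60 to -0.16 without that replicate, and most intervals cross 0.

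The VEGF receptors are the tyrosine kinases through which VEGF ligands drive endothelial growth, survival and permeability. Kdr, the main signalling receptor for VEGF-A, had 8.67 FPKM in the lowest wild-type library, a median of 17.2 and 44.6 in the highest. Its PDX1P33T values were 14.7, 6.36, 11.1, 15.1 and 11.3 FPKM in replicates 1 to 5. Only PDX1P33T replicate 2 lay below every wild-type library, and the other 4 fell among the lower wild-type values. Flt1 (VEGFR1), which binds VEGF-A tightly and limits its action, ranged from 3.17 to 17.5 FPKM in wild-type with a median of 6.95. In PDX1P33T it had 5.55, 2.53, 3.86, 6.27 and 3.95 FPKM, so 5 of the 6 wild-type libraries lay above all mutant libraries and wild-type replicate 1 did not. Flt4 (VEGFR3), the receptor for VEGF-C and VEGF-D that fenestrated capillaries share with lymphatic vessels, ranged from 1.48 to 7.66 in wild-type around a median of 3.06. Its PDX1P33T values were 2.86, 1.15, 1.97, 3.03 and 1.61 FPKM. The log2 fold changes were -0.67 ± 0.34 (SE) for Kdr, -0.73 ± 0.35 for Flt1 and -0.63 ± 0.35 for Flt4, with limma adjusted p-values of 0.719, 0.638 and 0.830. By the exact 2-sided permutation test over the libraries p was 0.126 for Kdr, 0.0801 for Flt1 and 0.156 for Flt4. Without wild-type replicate 3 the changes were -0.41, -0.47 and -0.38, and with replicate 1 left out they were -0.88, -0.96 and -0.84 (limma adjusted p 0.226, 0.192 and 0.256).

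Tie1, Tek and Ptprb belong to the angiopoietin pathway, which stabilises vessels: Tek binds the angiopoietins, Tie1 is its orphan partner, and the phosphatase Ptprb (VE-PTP) dampens Tek signalling. Tie1 had 3.04 FPKM in the lowest wild-type library, a median of 6.02 and 15.4 in the highest. Its values in PDX1P33T were 5.33, 2.31, 3.68, 5.09 and 3.19 FPKM. Here too only replicate 2 lay below all wild-type libraries. Tek ranged from 1.25 to 5.54 FPKM in wild-type with a median of 2.21, and was at 1.79, 0.814, 1.31, 1.64 and 1.05 FPKM in PDX1P33T. Of the 6 wild-type libraries 5 lay above all mutant ones, and 2 mutant libraries, replicates 2 and 5, lay below all wild-type ones. Its log2 fold change of -0.84 ± 0.31 was the lowest of the 20 genes, with a limma adjusted p of 0.499 and an exact permutation p of 0.0325. When wild-type replicate 3 was left out these became -0.60 ± 0.22, 0.720 and 0.0556, and when wild-type replicate 1 was left out -1.01 ± 0.28, 0.172 and 0.00794, the smallest exact permutation p that 5 against 5 libraries allow. Replicate 1 was the only wild-type library not above all mutant ones, so leaving it out fixes this permutation p, which adds no support. The wild-type row of Tek is also among those known from the sheet ordered by the difference between genotypes. Ptprb ranged from 0.576 to 4.54 FPKM in wild-type around a median of 1.95. In PDX1P33T it was at 1.37, 0.477, 0.893, 1.34 and 1.13 FPKM. PDX1P33T replicate 2 was again the lowest of all libraries, and wild-type replicates 1 and 2 lay among the mutant values. The log2 fold changes were -0.71 ± 0.34 for Tie1 and -0.78 ± 0.41 for Ptprb (limma adjusted p 0.638 and 0.761), or -0.91 and -1.07 without wild-type replicate 1.

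The stretch of DNA just upstream of the start of 5 receptor genes, the VEGF receptors, Tie1 and Tek, is shown as a description only. The windows hold the 250 bases before the transcript start, 5′ to 3′ on the strand of the gene, from RefSeq on GRCm38.p6. Capitals mark matches to AGGAAG or CGGAAG on either strand, letters that ETS factors such as Erg and Fli1 can recognise. The windows lie at chr5:75978456-75978705 (minus strand) for Kdr, chr5:147726012-147726261 (minus) for Flt1, chr11:49609429-49609678 (plus) for Flt4, chr4:118489850-118490099 (minus) for Tie1 and chr4:94739039-94739288 (plus) for Tek.
Kdr: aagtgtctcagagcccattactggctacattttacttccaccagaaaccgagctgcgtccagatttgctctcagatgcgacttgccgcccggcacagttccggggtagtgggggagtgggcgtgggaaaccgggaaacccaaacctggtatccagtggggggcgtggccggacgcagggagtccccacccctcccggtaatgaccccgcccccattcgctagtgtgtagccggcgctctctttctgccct
Flt1: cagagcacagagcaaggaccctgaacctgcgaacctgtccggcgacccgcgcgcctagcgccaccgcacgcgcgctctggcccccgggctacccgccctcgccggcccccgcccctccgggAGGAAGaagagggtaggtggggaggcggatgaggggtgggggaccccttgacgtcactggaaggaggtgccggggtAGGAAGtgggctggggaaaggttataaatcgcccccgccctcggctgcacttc
Flt4: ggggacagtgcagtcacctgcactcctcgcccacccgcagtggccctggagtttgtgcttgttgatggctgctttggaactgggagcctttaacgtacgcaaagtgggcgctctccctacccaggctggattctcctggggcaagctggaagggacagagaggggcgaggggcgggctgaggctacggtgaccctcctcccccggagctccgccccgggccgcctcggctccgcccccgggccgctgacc
Tie1: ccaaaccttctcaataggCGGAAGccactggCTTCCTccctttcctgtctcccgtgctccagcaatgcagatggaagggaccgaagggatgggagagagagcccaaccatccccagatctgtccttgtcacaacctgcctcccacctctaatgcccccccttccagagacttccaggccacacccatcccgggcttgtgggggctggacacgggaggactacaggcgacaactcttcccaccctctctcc
Tek: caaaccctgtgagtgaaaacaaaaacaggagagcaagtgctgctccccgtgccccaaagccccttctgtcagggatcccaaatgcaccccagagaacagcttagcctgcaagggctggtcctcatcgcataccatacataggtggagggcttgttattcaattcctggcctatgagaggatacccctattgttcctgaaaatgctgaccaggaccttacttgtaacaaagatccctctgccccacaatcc
Flt1 and Tie1 each held 2 matches, and Kdr, Flt4 and Tek held 0, which says only that these letters are not in this window. Of the 32 endothelial genes 15 were in the promoter table, with 20 windows, and 10 of the 20 (50%) held a match, against 39.2% of all 32851 windows. The SOX letters AACAAT, read on both strands, stood in 3 of the 20 windows (15%), against 9.42% of all, with Tek among the 3. These matches are a description of the letters and do not show binding.

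Of the genes for endothelial junctions and adhesion, Cdh5 encodes VE-cadherin of the adherens junction. It had 11.9 FPKM in the lowest wild-type library, a median of 23.8 and 62.7 in the highest, and 21.3, 9.09, 14.5, 22.4 and 14.4 FPKM in PDX1P33T. Pecam1, the CD31 antigen at the contacts between endothelial cells, ranged from 7.53 to 38.3 FPKM in wild-type around a median of 15.2, with 13.4, 6.50, 9.37, 13.9 and 9.53 FPKM in PDX1P33T. For both, 4 wild-type libraries lay above all mutant libraries, and PDX1P33T replicate 2 lay below all wild-type libraries. Esam, an adhesion molecule of tight junctions, ranged from 9.85 to 40.0 FPKM in wild-type with a median of 16, against 14.1, 8.58, 9.82, 14.2 and 11.3 FPKM. Cldn5, the claudin that seals endothelial tight junctions, was at 0.879 to 5.01 FPKM in wild-type (median 1.68) and at 1.18, 0.803, 0.679, 1.52 and 0.881 FPKM in PDX1P33T, on 27 to 137 reads per library. Cldn5 was unlike most genes here in that PDX1P33T replicate 3 and not replicate 2 was its lowest mutant library. Icam2, a ligand for leukocyte integrins, ranged from 1.51 to 10.1 FPKM in wild-type around 3.30, with 2.77, 1.62, 2.07, 3.22 and 1.95 FPKM in PDX1P33T. Rasip1, needed for vessel lumens, has no identified wild-type row. It lay between 1.00 and 2.66 FPKM in PDX1P33T, and its exons overlap those of other genes, so its reads are uncertain. The log2 fold changes ran from -0.83 ± 0.37 for Cldn5 to -0.57 ± 0.28 for Esam, with Cdh5 at -0.60 ± 0.37, Pecam1 at -0.58 ± 0.34 and Icam2 at -0.64 ± 0.36. Their limma adjusted p-values lay between 0.573 and 0.989, and without wild-type replicate 3 the changes ran from -0.55 to -0.31. Without wild-type replicate 1 they ran from -1.02 for Cldn5 to -0.73 for Esam.

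Most genes for the fenestrae, the glycocalyx and the cell surface could be read in PDX1P33T only. Plvap was at 68.2, 31.1, 55.1, 71.4 and 54.0 FPKM in replicates 1 to 5. Emcn, a mucin-like sialoprotein of capillaries and veins, was at 12.7, 7.62, 9.37, 13.5 and 10 FPKM, the next in level among the genes without wild-type values. For both genes replicate 2 was the lowest library and replicate 4 the highest. Gpihbp1, which carries lipoprotein lipase across the capillary wall, was at 7.99, 4.97, 5.17, 7.92 and 5.32 FPKM. Mmrn2, an extracellular matrix protein of endothelium, lay between 3.81 and 8.14 FPKM, and Robo4, a guidance receptor that steadies vessels, between 3.27 and 8.30. Podxl, a sialomucin of the luminal surface, ranged from 2.86 to 7.55 FPKM and Cd34, a sialomucin of capillaries and blood progenitors, from 1.96 to 3.45, with 148 bases of Cd34 exon under Gm16897 on the opposite strand. In 7 of the 8 genes of this group PDX1P33T replicate 2 was the lowest library.

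Clec14a, the remaining surface gene and a lectin-like receptor that binds Mmrn2, did not follow this. Its wild-type row is identified, with 0.582 FPKM in the lowest library, a median of 1.21 and 3.04 in the highest. In PDX1P33T it stood at 0.651, 0.737, 0.733, 0.755 and 0.819 FPKM, on 80 to 138 reads per library. Its mutant values were thus close to one another, replicate 2 sat among them, and 5 of the 6 wild-type libraries lay above all of them, with wild-type replicate 1 below. The log2 fold change was -0.69 ± 0.29, with a limma adjusted p of 0.529 and an exact permutation p of 0.0390. Without wild-type replicate 3 it was -0.44 ± 0.18, with an adjusted p of 0.747 and an exact permutation p of 0.0476. Without wild-type replicate 1 it was -0.88 ± 0.24, with p-values of 0.166 and 0.00794 by the same limma and exact permutation tests. Leaving out the only wild-type library not above all mutant ones fixes this permutation p too, so it adds no support. The wild-type row of Clec14a likewise came from the sheet ordered by the difference between genotypes. The same window of its promoter is also shown, at chr12:58269259-58269508 on the minus strand, and holds 0 of the ETS and 0 of the SOX matches. Of the other genes that spread little in PDX1P33T, the windows of Egfl7 held 3, 1 and 0 ETS matches and those of Erg 1, 0 and 0.
Clec14a: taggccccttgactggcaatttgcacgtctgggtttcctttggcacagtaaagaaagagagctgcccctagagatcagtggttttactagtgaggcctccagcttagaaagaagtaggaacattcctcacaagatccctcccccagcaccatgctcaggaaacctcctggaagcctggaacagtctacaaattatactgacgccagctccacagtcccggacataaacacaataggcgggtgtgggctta

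Among the other receptors, enzymes and secreted proteins, Eng was the most abundant gene with wild-type values. It had 20 FPKM in the lowest wild-type library, a median of 36.2 and 99.6 in the highest, and 28.4, 14.3, 21.5, 31.2 and 20.3 FPKM in PDX1P33T. S1pr1, the receptor through which sphingosine-1-phosphate tightens the vessel wall, ranged from 11.1 to 50.5 FPKM in wild-type around 19.3, with 17.3, 9.55, 13.6, 18.2 and 14.2 FPKM in PDX1P33T. In each of them 4 wild-type libraries lay above all mutant libraries, and the log2 fold changes were -0.77 ± 0.34 for Eng and -0.55 ± 0.31 for S1pr1 (limma adjusted p 0.560 and 0.853), or -0.96 and -0.73 without wild-type replicate 1. The exons of Eng share 61 bases with those of Fpgs on the opposite strand. Nos3, the endothelial nitric oxide synthase, had 1.28 FPKM in the lowest wild-type library, a median of 2.09 and 6.22 in the highest. It was at 1.5, 0.969, 1.25, 1.94 and 1.10 FPKM in PDX1P33T, where replicates 2, 3 and 5 lay below all wild-type libraries. Its log2 fold change was -0.83 ± 0.32, with a limma adjusted p of 0.499 and an exact permutation p of 0.0303. With wild-type replicate 3 left out it was -0.57 ± 0.22 with p-values of 0.727 and 0.0556 by the same limma and exact permutation tests, and with wild-type replicate 1 left out -1.01 ± 0.30 with 0.182 and 0.0159. Leaving out the lowest wild-type library widens the difference by construction, so these last p-values add no support. The wild-type row of Nos3 also came from the sheet ordered by the difference between genotypes. Part of Nos3 lies under an antisense gene that shares 1040 bases of exon, and the strandedness of the libraries is not stated, so its reads may include those of the neighbour.

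Egfl7, a secreted protein of the vessel matrix whose gene hosts the endothelial microRNA miR-126, ranged from 6.48 to 26.2 FPKM in wild-type around 8.69, with 8.04, 6.51, 6.52, 7.47 and 6.17 FPKM in PDX1P33T. Outside wild-type replicate 3 it varied little, by 1.44-fold over the other wild-type libraries and 1.3-fold over the mutant ones. Its log2 fold change was -0.53 ± 0.28, or -0.25 ± 0.11 without wild-type replicate 3 (limma adjusted p 0.776 and 0.765), and 5 of 6 wild-type libraries lay above all mutant ones. Without wild-type replicate 1 it was -0.65 ± 0.28 (adjusted p 0.361). Egfl7 shares 264 bases of exon with Gm20532 on the same strand, so its reads are uncertain. Vwf was low in every library, with 0.179 to 0.944 FPKM in wild-type (median 0.291) and 0.313, 0.0971, 0.218, 0.253 and 0.225 in PDX1P33T, for a log2 fold change of -0.51 ± 0.31 (adjusted p 0.954), or -0.64 without wild-type replicate 1. Of the genes without wild-type values, Ramp2, which turns the receptor Calcrl into the adrenomedullin receptor, lay between 3.18 and 4.32 FPKM in PDX1P33T. It shares 1103 bases of exon with Vps25 on the same strand, which makes its level uncertain. Aplnr spread most of all 32 genes, 5.44-fold, from 0.0683 to 0.372 FPKM, on few reads.

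The transcription factors of the set keep the endothelial programme in place. Sox18 had 4.24 FPKM in the lowest wild-type library, a median of 7.79 and 29.3 in the highest, which was 3.83 times the median of the other 5. In PDX1P33T it was at 7.87, 3.75, 6.05, 9.45 and 4.97 FPKM. Its relative Sox17, a factor of arterial endothelium, ranged from 0.540 to 2.39 FPKM in wild-type around 0.828 and was at 1.01, 0.433, 0.643, 0.740 and 0.659 FPKM in PDX1P33T. For both factors the bulk of the wild-type and mutant libraries shared one range, with 2 wild-type libraries above all mutant ones. Fli1 ranged from 0.505 to 1.90 FPKM in wild-type around 0.951, with 0.779, 0.435, 0.596, 0.699 and 0.514 FPKM in PDX1P33T, on 36 to 128 reads per library. The log2 fold changes were -0.59 ± 0.40 for Sox18, -0.42 ± 0.31 for Sox17 and -0.60 ± 0.26 for Fli1, with limma adjusted p-values of 1.00, 1.00 and 0.550. Without wild-type replicate 3 they were -0.26, -0.16 and -0.41, and without wild-type replicate 1 -0.81, -0.55 and -0.76. Sox17 shares 804 bases of exon with Gm37587 on the opposite strand, and with the strandedness not stated its reads may include those of the neighbour.

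Erg, the ETS factor that endothelium shares with few other cells, has no identified wild-type row. Its PDX1P33T values were 3.63, 3.45, 3.46, 4.26 and 3.40 FPKM, nearly flat where most endothelial genes were lowest in replicate 2. There Erg was at 0.974 of the median of the other 4 libraries, against 0.490 for Kdr and 0.505 for Plvap. Tal1, a factor of blood and endothelial precursors, was at 0.154 to 0.454 FPKM.

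**Figure D4:**
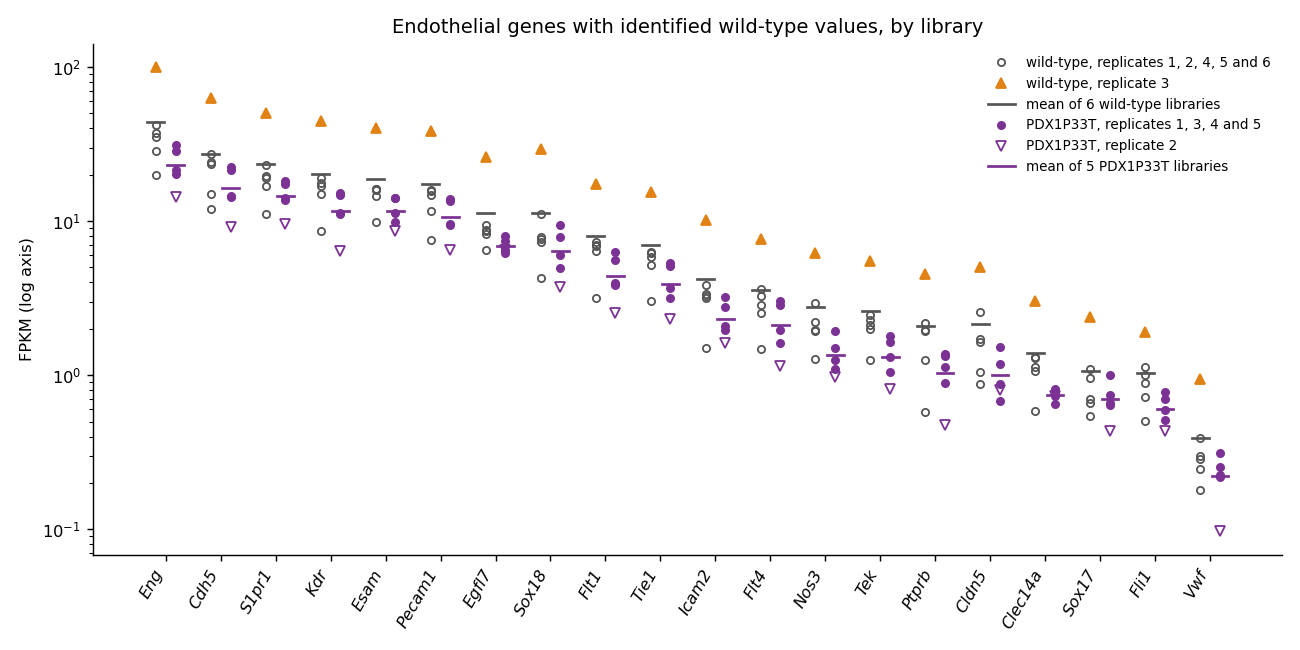
FPKM (log axis) of the 20 endothelial genes with identified wild-type values, with each of the 6 wild-type libraries (open circles, replicate 3 as an orange triangle) beside each of the 5 PDX1P33T libraries (filled circles, replicate 2 as an open triangle) and a bar at each mean. Wild-type replicate 3 is the top symbol for all 20 genes, and the other libraries of the genotypes overlap.

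The wider pathway was read from 55 genes of endothelial signalling, chosen as ligands, coreceptors, partners and further transcription factors. Of these 22 have an identified wild-type row, 0 were called in either direction, 19 had a log2 fold change below 0, against 52.9% of the genes fitted, and the median was -0.49 (-0.32 with wild-type replicate 3 left out and -0.63 with replicate 1 left out). An unadjusted p under 0.05 with a lower level in PDX1P33T was reached by 6 of the 22, against 18.3%. All 6 were among the 11 signalling genes identified by their reads, where the share over all genes was 48.5%, and 0 of the 11 matched by length and level had one, against 1.74%. Nrp1, the VEGF coreceptor, lay between 1.96 and 12.8 FPKM in wild-type with replicate 3 at the top, and at 3.88, 1.63, 2.54, 3.83 and 2.74 FPKM in PDX1P33T (log2 fold change -0.73 ± 0.37, limma adjusted p 0.724). Epas1, a hypoxia-inducible factor rich in endothelium, had -0.72 ± 0.33 (adjusted p 0.592), Klf2, a factor induced by blood flow, -0.68 ± 0.35 (0.738), Notch4, the endothelial Notch receptor, -0.64 ± 0.34 (0.765), and Spns2, which exports sphingosine-1-phosphate, -0.61 ± 0.23 (0.499), none past the test. In Klf2 wild-type replicate 2, at 4.65 FPKM, was above replicate 3, at 4.07. Calcrl, the partner of Ramp2, had no identified wild-type row and lay between 1.2 and 1.97 FPKM in PDX1P33T.

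Vegfa, the ligand that endocrine cells make, did not share the pattern of its receptors. It stood at 21.4 FPKM in the lowest wild-type library, 27.4 to 35.6 in the other 5, and 30.3, 36.1, 33.6, 28.9 and 34.8 in PDX1P33T. Wild-type replicate 3, the highest library for every endothelial gene compared, was the lowest for Vegfa, at 0.711 of the median of the other 5. PDX1P33T replicate 2, the lowest for Kdr and Flt1, was the highest for Vegfa, at 1.13 of the median of the other 4. The genotypes averaged 28.8 ± 4.67 FPKM (SD, n = 6) and 32.7 ± 3.03 (n = 5), a log2 fold change of 0.20 ± 0.12 with a limma adjusted p of 0.981.

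Genes of other cells moved in the same libraries. In wild-type replicate 3, genes of pericytes and stroma stood at a median of 2.54 times the other 5 libraries (6 of 11 listed genes with a wild-type row) and genes of macrophages and lymphocytes at 1.92 times (4 of 9), while endocrine genes stood at 0.957 (8 of 10), from 0.551 for Iapp to 1.86 for Ppy. Ppy and Sst, hormone genes of the PP and delta cells picked after their values were seen, were highest in that library too, Ppy at 14937 FPKM and Sst at 10589. The 3 Schwann cell genes with a wild-type row had a median of 1.14, and Krt7, the one gene of the acinar and duct list with a wild-type row, was at 0.855. In PDX1P33T Krt7 lay at 51.9 to 64.5 FPKM and Spp1 at 66.5 to 79.7, but the duct genes Krt19 and Sox9 only at 1.34 to 2.53 and 0.132 to 0.468. Whether Krt7 stands for duct cells here was not tested. Of the 4 macrophage and lymphocyte genes with a wild-type row only Cd68 was highest in wild-type replicate 3, at 45 FPKM against 17.5 to 44.1 in the other wild-type libraries. The other 3 were highest in replicate 2, where the 4 summed to 57.8 FPKM against 55.9 in replicate 3. The sum of the pericyte and stroma genes was not highest in replicate 3 either, at 8.83 FPKM against 30.5 in replicate 2. In replicate 2 that sum rested mostly on the collagen genes Col1a1, Col3a1 and Col1a2, at 13.6, 8.33 and 4.90 FPKM, and the endothelial genes stood at a median of 0.875 of their wild-type median. Of the pericyte genes, Cspg4 was highest in replicate 3, at 2.12 FPKM against 1.81 in replicate 2. Notch3 was highest in replicate 2, at 1.58 FPKM against 0.992 in replicate 3. In replicate 3 they stood at 4.04 and 2.66 times the median of the other 5 libraries. The part of these cells in the endothelial values was not tested.

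PDX1P33T replicate 2 held the highest level of 6 of 9 acinar and duct genes. Among the genes fitted and above 0 in all 5 PDX1P33T libraries it was the highest for 1734 of 4700. In that library the 9 genes stood at a median of 3.70 times the other 4 libraries. The ratio reached 19.2 for the trypsinogen gene Prss2, picked after its values were seen, but was only 1.12 for Spp1, also of the 6. Ctrb1, a chymotrypsinogen, was at 41.5 FPKM there and 2.51 to 6.52 in the others. Pericyte and stroma genes stood at a median of 0.706 of the other 4. Within that list the pericyte genes Pdgfrb, Cspg4, Rgs5 and Notch3 stood at 0.463, 0.593, 0.633 and 0.383. Col1a1, Col1a2, Col3a1 and Dcn stood at 0.706, 0.736, 0.669 and 0.869. Acta2, Pdgfra and Lum stood at 1.55, 3.16 and 3.20, the last 2 on few reads. Macrophage and lymphocyte genes stood at a median of 0.692, against 0.568 for the endothelial genes, and endocrine genes at 1.07. Iapp, the beta cell peptide, was at 56328 FPKM against 28444 to 31927. The part of acinar RNA in the endothelial values of this library was not tested. Summed over the genes with wild-type rows, pericyte and stroma genes lay between 2.30 and 30.5 FPKM in wild-type and 2.35 and 4.31 in PDX1P33T, and macrophage and lymphocyte genes between 22.3 and 57.8 and between 17.3 and 27.6. Of genes without wild-type rows, Lyz2 of macrophages lay between 18.9 and 25.9 FPKM in PDX1P33T. Cd79a, listed for B cells, lay between 8.41 and 15.7 with replicate 2 at the top. Ms4a1, also listed for B cells, lay between 0 and 0.190 FPKM and was at 0 in replicate 2, so these genes do not give one reading of B cells. None of the lists for other cells had a gene called between genotypes by the fit made here. Their median log2 fold changes were -0.64 for pericytes and stroma, -0.58 for macrophages and lymphocytes, -0.67 for Schwann cells and 0.10 for endocrine genes, and the single platelet gene with a wild-type row, Gp1ba, had -0.67. Ngfr, of the Schwann list, was reported by the paper as significantly lower in PDX1P33T by its own test. Here it had -1.45 ± 0.34 with a limma adjusted p of 0.457. Every PDX1P33T library lay below every wild-type library for Ngfr, as for 2.54% of the genes fitted. Of the genes listed for lymphatic endothelium 4 were measured, with Prox1 at 3.21 to 3.95 FPKM, Lyve1 at 1.09 to 2.03 and Pdpn at 0.154 to 0.719 in PDX1P33T, and none has an identified wild-type row. The cells that these reads came from were not tested. Red cell genes were low and also without wild-type rows, Hbb-bs at 0.686 to 2.28 FPKM.

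**Figure D5:**
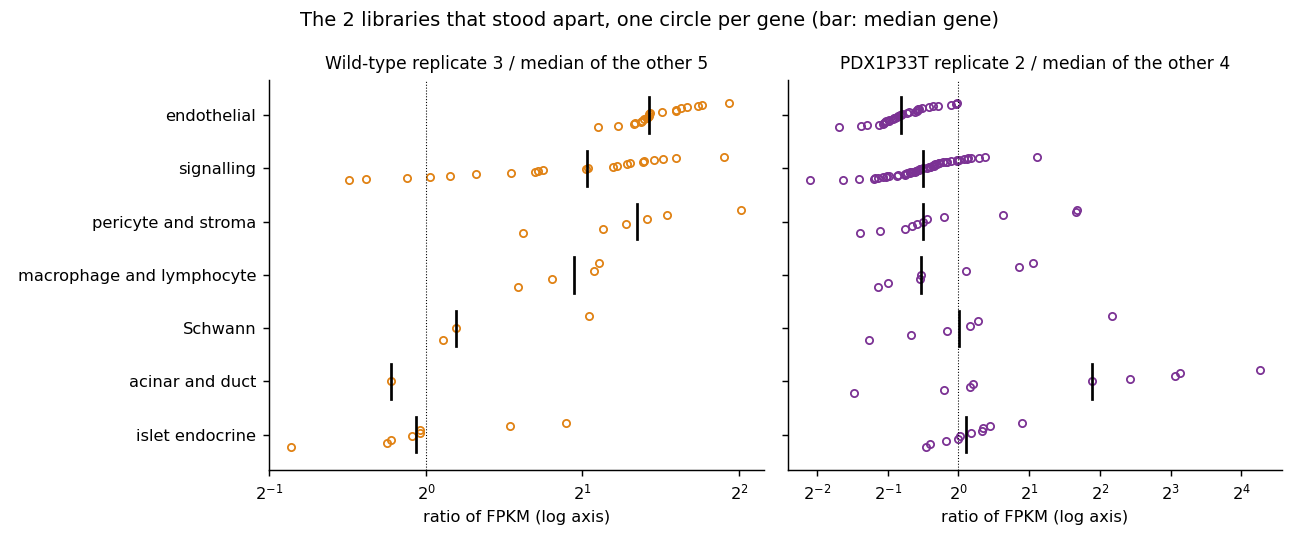
FPKM in wild-type replicate 3 over the median of the other 5 wild-type libraries (left) and in PDX1P33T replicate 2 over the median of the other 4 PDX1P33T libraries (right), on log axes, 1 circle per gene and a bar at the median gene of each list. Endothelial genes lie at 2.14 to 3.83 on the left and 0.311 to 0.991 on the right, and acinar and duct genes reach 19.2 on the right.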

How the data were processed

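Bulk RNA-sequencing of whole islets gave 11 libraries. Per the methods and the submitters' processing notes, the authors filtered reads with fastp 0.23.1, aligned them with HISAT2 2.0.5, counted them with featureCounts 1.5.0-p3 and deposited FPKM per library keeping a gene if 80% or more of a condition's replicates had a value. The authors' notes also list DESeq2 1.20.0, GRCm39 and mm39. Both a strand-specific and a non-strand-specific library kit are named without saying which was used.

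FPKM move in steps of 1 read. From these steps, and from reads and lengths in the held part of a supplementary sheet (the first 1749 rows), depth and gene lengths were recovered. For 1712 genes the wild-type row was known from wild-type reads in that part of the sheet. Its reads and lengths were used for rows, depths and lengths and did not enter the fit. Another 3052 were added where length matched, each genotype had at least 100 reads, group means differed by up to 4-fold and a second candidate of the length, if any, lay over 16-fold away. Of 403 genes found both ways, 403 got the same row. Genes at 0 in every PDX1P33T library (39) were left out, which left 4725 genes. The 20 endothelial genes with wild-type rows are 9 of the first kind and 11 of the second. Of the other 12, 10 had more than 1 wild-type row of their length and 2 shared their length with another gene.

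limma 3.58.1 (R 4.3.3, trend and robust options) was fitted to log2(FPKM + 0.1) over 6 wild-type and 5 PDX1P33T libraries without covariates, so fold changes of low genes are understated. The p-values were adjusted (Benjamini-Hochberg) over all 19329 gene IDs, missing genes counted as unchanged. Single genes also got a 2-sided exact permutation test over all 462 splits, unadjusted. The fit and the row matching were tested on simulated data. The study's legend speaks of several mice per biological replicate without saying whether they were pooled, so p-values measure the spread between libraries. The labels do not say whether replicate numbers pair the libraries, and the main fit used no pairing. Deviations of same-numbered libraries correlated at -0.55 to 0.07, which cannot settle whether they share a batch. Per kb of gene, 1 read is worth 0.0270 to 0.0518 FPKM, and read numbers cover counting error only. Symbols were found for 18787 gene IDs. Promoter windows came from RefSeq (GRCm38.p6), and exon overlaps from GENCODE vM21 on GRCm38.

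All endothelial genes are reported. Per-library values are given for those with a wild-type row and for the 3 most abundant of the rest. Signalling genes named are the 5 of largest change with at least 100 reads in each genotype, plus Vegfa, Nrp1 and Calcrl, and up to 3 of the most abundant per list of other cells. Further genes of the lists of other cells were named after their values were seen. Members and lists were chosen with earlier results of these data known. Alternatives covered the pseudocount, a level filter, rescaling, centring, the row rule, the thresholds, replicate blocks and leaving out libraries. Python 3.11.15, numpy 2.4.6, pandas 2.3.3, scipy 1.17.1 and matplotlib 3.10.9 were used.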

Additional observations from a re-analysis of the deposited data

Results flagged for a closer look

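In wild-type, the gap between replicate 3 and the next library took up more of the range over the 6 libraries than Dixon's 95% critical value for 17 of 20 endothelial genes. The share of the range was 0.708 for Kdr, 0.714 for Flt1, 0.649 for Flt4, 0.739 for Tie1, 0.721 for Tek, 0.697 for Cdh5, 0.724 for Pecam1, 0.791 for Esam and 0.729 for Icam2. For Clec14a it was 0.703, for Eng 0.722, for S1pr1 0.698, for Nos3 0.660, for Vwf 0.721, for Egfl7 0.854, for Sox17 0.695 and for Sox18 0.726. Ptprb, Cldn5 and Fli1 were under the critical value, although replicate 3 was their highest library too. Chance flags about 1 in 20 groups of independent values, and these genes share their libraries, so the 17 are not 17 separate events. The gap was measured on FPKM and not on logs, so a skew of FPKM enters it. How many of all genes fitted were past this value was not counted, so the 17 of 20 stand without a background. In this library endocrine genes stood at a median of 0.957 of the other 5, from 0.551 for Iapp to 1.86 for Ppy.

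In PDX1P33T, 1 of 32 endothelial genes was past the critical value for 5 libraries. It was Erg, at 0.735, with replicate 4 at 4.26 FPKM and the other 4 between 3.40 and 3.63. Again the share over all genes was not counted.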

How the results depend on the processing

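Under 25 other settings, 0 of 20 endothelial genes were called, and 488 of 488 single-gene values kept a log2 fold change below 0 with an adjusted p above the threshold. The lowest adjusted p of any of them was 0.122. The median log2 fold change over the endothelial genes stayed below 0 under all of them, from -0.86 without wild-type replicate 1 to -0.40 without wild-type replicate 3 when libraries were left out singly, and -0.23 without wild-type replicate 3 and PDX1P33T replicate 2, a setting chosen after seeing the data. Rescaling each library to one common sum gave -0.79, where the median of all genes fitted was -0.21, so the shift of the endothelial genes is read against that median. The genes called over the whole fit, none of them endothelial, numbered 4. They were 2 with a threshold of 1.5 on the log2 scale and 13 when p was adjusted over the genes fitted only, both by construction of the threshold. They were 8 without wild-type replicate 3 and with rescaling, and 7 without wild-type replicate 3 and PDX1P33T replicate 2, and the cause was not tested. Leaving out 1 library at a time gave 3 to 8. With a replicate block by title numbers 1 gene was called and the median over the endothelial genes was -0.62. With a block by library-name numbers, which drops wild-type replicate 3, 3 were called and the median was -0.40. The best match of a library to its own number held for 1 of 5 pairs by library name and 0 of 5 by title. Depth limits Aplnr, Tal1, Cldn5, Fli1 and Vwf, with 6 to 293 reads per library, and the 12 genes without a wild-type row were not compared between genotypes.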
